A study of Mus musculus with 13 samples.

Results

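The Wnt genes measured in chemically induced skin tumours are described here: 14 ligands, the enzyme Porcn, 12 receptors and co-receptors, 7 secreted antagonists, 3 genes of receptor turnover and membrane antagonism, 3 of beta-catenin and its destruction complex, 2 nuclear factors and 4 feedback targets. The genes were chosen by name as the ligands, receptors, antagonists and targets of the pathway, and 46 of 47 were measured, of 17097 genes in all. Sfrp4 was not analysed here. Each was represented by 1 probe set, the brightest on average, and the other probe sets served as a check. The 46 genes had 84 probe sets, 22 genes having 1 and 24 having several.

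The tumours were squamous tumours of G9a cKO mice (conditional knockout, n = 7 arrays) and of G9a WT mice (n = 6 arrays), with 1 total RNA sample on each array. G9a, encoded by Ehmt2, is a histone methyltransferase that methylates lysine 9 of histone H3. Both groups were treated alike: from 8 weeks of age, the carcinogen DMBA (0.25 mg/ml) and the tumour promoter TPA (0.02 mg/ml) were given to shaved back skin in 200 µl of acetone each week for 6 weeks, and TPA went on for up to 20 weeks. The sources used here name neither the driver of the knockout, nor the strain, nor the cells in which G9a was deleted. They also leave unstated whether any mouse gave more than 1 tumour, so p-values refer to these samples alone.

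Wnt proteins are secreted ligands that carry a lipid added by the enzyme Porcn, and they bind Frizzled receptors together with the co-receptors Lrp5 and Lrp6. Without a ligand, a complex that holds Apc and Axin marks beta-catenin for destruction, and with a ligand beta-catenin reaches the nucleus and works with Lef1 and Tcf factors on target genes, several of which are inhibitors of the pathway itself. In skin the pathway is known for its role in hair follicle formation and cycling, and a second branch, which does not use beta-catenin, orients cells within the tissue.

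Values are log2 levels after RMA normalization. Differences are cKO minus WT on that log2 scale, and a called gene has an adjusted p under 0.05 in limma over all 17097 genes. Arrays that stand next to each other within a group mirrored each other around the group mean, with correlations of their deviations between -0.956 and -0.88 in 6 pairs, and cKO replicate 1 lay close to the mean of its group. The fit was therefore also run with a term for these pairs, and a gene is said here to have risen or fallen where both fits call it. Without the pair term 45.8% of all genes were called (4386 higher and 3444 lower), and 24.7% were called in both fits. With every array centred on its median gene, the split without the pair term was 2761 higher and 4960 lower, because the median gene level of the cKO arrays lay 0.07 above that of the WT arrays. The deleted gene, Ehmt2, had 5.87 to 6.12 in cKO tumours, against 8.03 to 8.61 in WT tumours, on probe set 2, while probe set 1 was not called (7.36 to 7.49 in cKO tumours, 7.03 to 7.53 in WT tumours). Of the array's own controls, 23 nonspecific probe sets differed by -0.31 to 0.08 between the groups, and 18 hybridisation controls, which are added to the sample, were all higher on cKO arrays, by 0.06 to 0.49.

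Of the 46 Wnt genes, 15 (32.6%) were called without the pair term, 6 higher and 9 lower, against 45.8% of all genes (25.7% higher and 20.1% lower). In both fits 6 (13%) were called, 3 higher and 3 lower, against 24.7% of all genes (14.4% higher and 10.3% lower). Both shares of the Wnt genes were thus below those of all genes. Wnt16, Apcdd1 and Axin2 rose, and Fzd8, Axin1 and Ctnnb1 fell. The groups did not overlap for 8 of the 46 (17.4%), against 23% of all genes. On its probe set of highest mean, no Wnt gene changed by more than 2-fold, as 1.87% of all genes did. The median difference over the 46 was 0.04, against 0.02 over all genes. The largest difference of a nonspecific control was a fall of 0.307, and none of these controls rose by more than 0.08. Differences of 12 Wnt genes were larger in size than 0.307, as were those of 23.7% of all genes. Of the 6 genes called in both fits, Wnt16, Apcdd1, Axin2 and Fzd8 passed it.

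**Figure D1:**
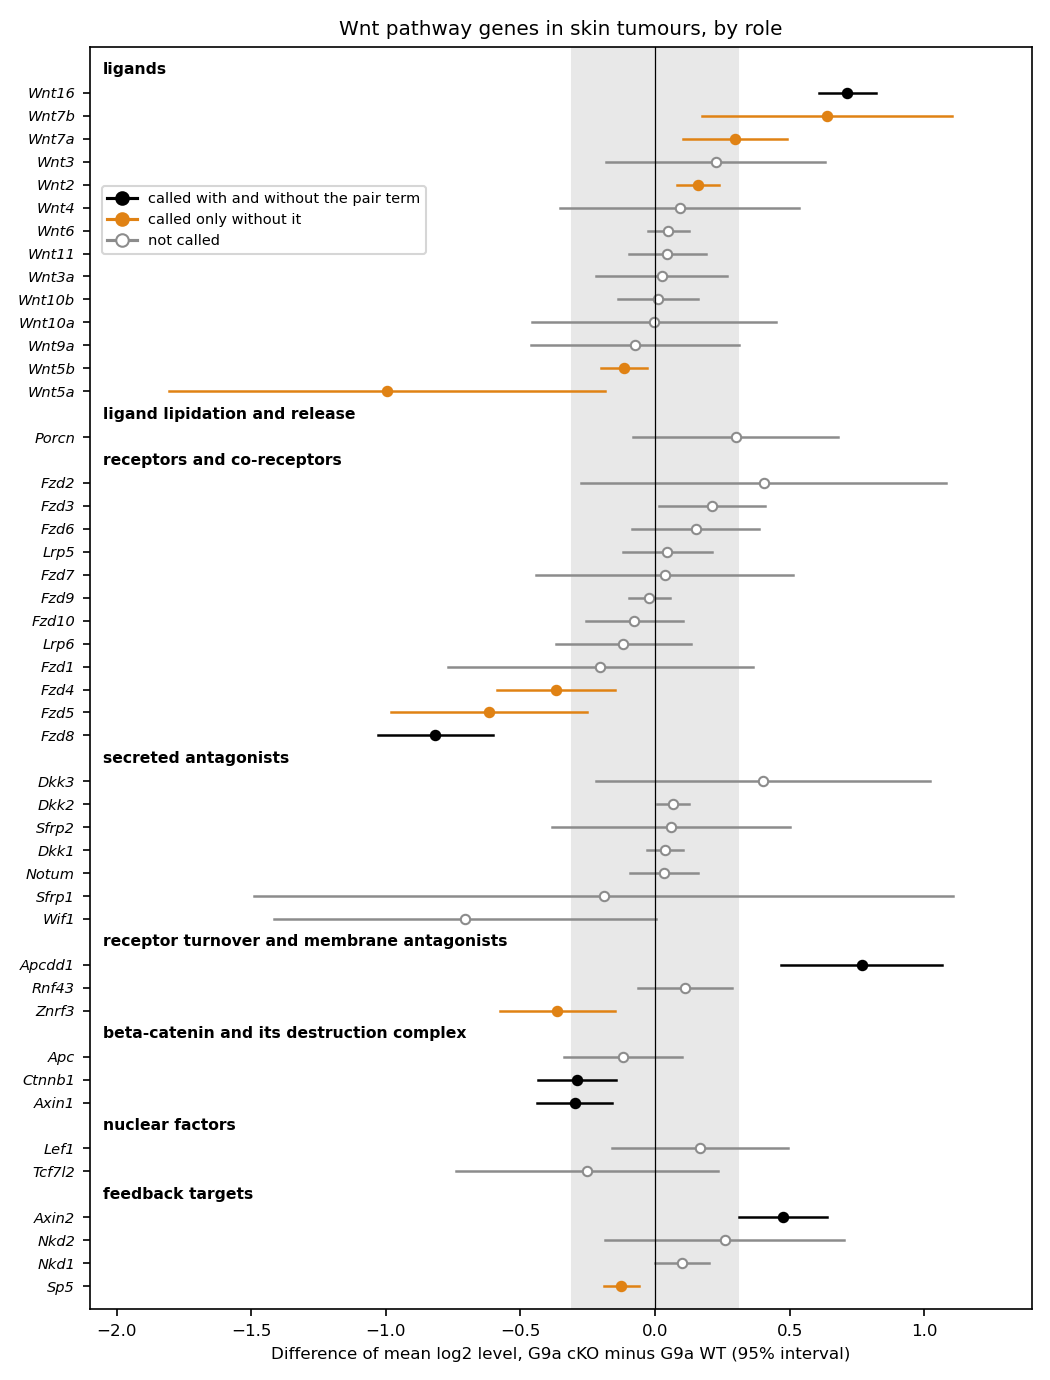
Difference of the mean log2 level, G9a cKO minus G9a WT, of 46 Wnt genes grouped by role, with 95% intervals from the fit without the pair term. The grey band spans 0.307 on either side of 0, the size of the largest difference of a nonspecific control. That control fell, and none rose by more than 0.08. The black points right of 0 are Wnt16, Apcdd1 and Axin2, those left of 0 are Fzd8, Axin1 and Ctnnb1, and Axin1 and Ctnnb1 lie inside the band.

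Among the 14 ligands, read by their probe set of highest mean, Wnt16 was called in both fits and rose in cKO tumours. Wnt16, a ligand best known for its part in bone, had 5.38, 5.53 and 5.62 as lowest, median and highest level on the 7 cKO arrays, against 4.68, 4.78 and 4.89 on the 6 WT arrays. Every cKO array lay above every WT array. The means were 5.49 ± 0.10 in cKO tumours (SD, n = 7) and 4.78 ± 0.07 in WT tumours (SD, n = 6), a difference of 0.71 (95% interval 0.61 to 0.82) or 1.64-fold, with a limma adjusted p of 5.15e-07 and of 0.000673 with the pair term. Wnt16 had 1 probe set, so no other probe set checks it.

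The start of Wnt16 is shown because, read by the probe set of highest mean, it was the ligand with a call in both fits. The window runs from 250 bases before to 50 bases after the annotated start (RefSeq, mouse build GRCm38.p6, plus strand, chromosome 6), and capitals mark CG dinucleotides, the sites of DNA methylation.

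Wnt16, chr6:22287977-22288276: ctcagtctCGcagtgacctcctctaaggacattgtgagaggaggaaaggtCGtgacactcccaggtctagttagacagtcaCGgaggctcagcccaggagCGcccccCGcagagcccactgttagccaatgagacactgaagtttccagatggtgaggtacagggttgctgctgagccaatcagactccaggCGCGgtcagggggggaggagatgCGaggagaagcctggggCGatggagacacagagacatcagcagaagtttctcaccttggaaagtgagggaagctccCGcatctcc

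The Wnt16 window holds 10 CG dinucleotides, and 56.5% of the 32851 mouse windows of this length hold fewer. Over the 38 windows of the 29 Wnt genes found in the table the median was 24 (3 to 58), against 7 over all windows. No methylation was measured in these samples.

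Wnt7b, a ligand made in epidermis and hair follicle, was higher in cKO tumours on both of its probe sets. Its probe set of highest mean had 7.39, 7.91 and 8.44 (lowest, median, highest) in cKO tumours, against 6.54, 7.31 and 7.91 in WT tumours, a difference of 0.64 (0.17 to 1.10) with a limma adjusted p of 0.0273 and of 0.127 with the pair term. Here the groups overlapped, with 4 of 7 cKO arrays above all WT arrays. The second probe set had 7.15, 7.40 and 7.78 in cKO tumours, against 6.21, 6.64 and 6.83 in WT tumours, with no overlap. The difference on that probe set was 0.84, called in both fits with adjusted p of 0.000132 and 0.00805 over all 28898 probe sets. The call of Wnt7b thus rests on which probe set is read once the pair term is in the fit.

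Wnt5a, the ligand most studied for the branch without beta-catenin, had the most negative difference of the 46, -0.99 (-1.80 to -0.19), together with a wide spread. It had 6.15, 6.70 and 7.40 in cKO tumours, against 6.63, 7.80 and 8.84 in WT tumours, and 3 of 7 cKO arrays lay below all WT arrays. The adjusted p was 0.0445 in limma without the pair term and 0.161 with it. After quantile normalization it was 0.0554 without the pair term. The call was also lost when any of 7 of the 13 arrays was left out, namely cKO replicates 1, 3, 5 and 9 and WT replicates 2, 7 and 9, with adjusted p of 0.0724 to 0.0969. Its second probe set had 5.78, 6.41 and 7.20 in cKO tumours and 6.40, 7.37 and 8.49 in WT tumours, a difference of -0.87 that was not called (adjusted p 0.0911).

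Wnt5b, the close relative of Wnt5a, differed by -0.12 on its first probe set, which was called without the pair term (adjusted p 0.027) and not with it (0.147), and that call was lost when any of 5 arrays was left out (cKO replicates 1, 2 and 6 and WT replicates 4 and 8). On that probe set Wnt5b had 4.68, 4.77 and 4.89 in cKO tumours and 4.82, 4.86 and 4.98 in WT tumours. The second probe set fell by 0.49 and was called in both fits (adjusted p 0.00314 and 0.0395), with 3.79, 3.97 and 4.09 in cKO tumours and 4.09, 4.39 and 4.91 in WT tumours. That second probe set lay near the nonspecific controls, whose values had an upper quartile of 4.31.

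Of the other ligands, Wnt2 and Wnt7a were called higher without the pair term. Wnt2 had 4.60, 4.68 and 4.70 in cKO tumours, against 4.41, 4.52 and 4.60 in WT tumours, a difference of 0.16 (adjusted p 0.0527 with the pair term). Wnt7a had 4.39, 4.58 and 4.96 in cKO tumours, against 4.18, 4.35 and 4.46 in WT tumours, a difference of 0.30 (adjusted p 0.0964 with the pair term). Its second probe set went the other way, with 3.66, 3.70 and 3.79 in cKO tumours and 3.72, 3.79 and 3.90 in WT tumours (-0.09, called without the pair term). All values of that second probe set lay below the controls' upper quartile of 4.31, and its difference was within the range of the nonspecific controls. The first probe set of Wnt7a lay near that quartile in WT tumours. With every array centred on its median gene neither ligand was called (Wnt2 0.09, adjusted p 0.0924; Wnt7a 0.23, adjusted p 0.059).

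The remaining 8 ligands were not called on their probe set of highest mean: Wnt3 differed by 0.22, Wnt4 by 0.09, Wnt6 by 0.05, Wnt11 by 0.05, Wnt3a by 0.02, Wnt10b by 0.01, Wnt10a by -0.003 and Wnt9a by -0.07. Wnt10a and Wnt10b, ligands with known parts in hair follicle formation, thus had differences near 0. The interval of Wnt10a ran from -0.46 to 0.45, and that of Wnt10b from -0.14 to 0.16. Wnt6 had 4.49, 4.54 and 4.63 in cKO tumours, against 4.40, 4.51 and 4.59 in WT tumours. A second probe set of Wnt6 was called higher without the pair term (3.63, 3.72 and 3.76 in cKO tumours, 3.47, 3.58 and 3.67 in WT tumours), also below the controls' upper quartile. The second probe set of Wnt4 differed by -0.25 and was not called, with 6.93, 7.47 and 7.83 in cKO tumours and 6.98, 7.66 and 8.29 in WT tumours; the first had 8.65, 9.05 and 9.30 in cKO tumours and 8.30, 8.96 and 9.46 in WT tumours. Porcn, the lipid-adding enzyme, had 9.18, 9.73 and 10.17 in cKO tumours, against 9.05, 9.36 and 9.85 in WT tumours, a difference of 0.30 (-0.08 to 0.68) that was not called.

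**Figure D2:**
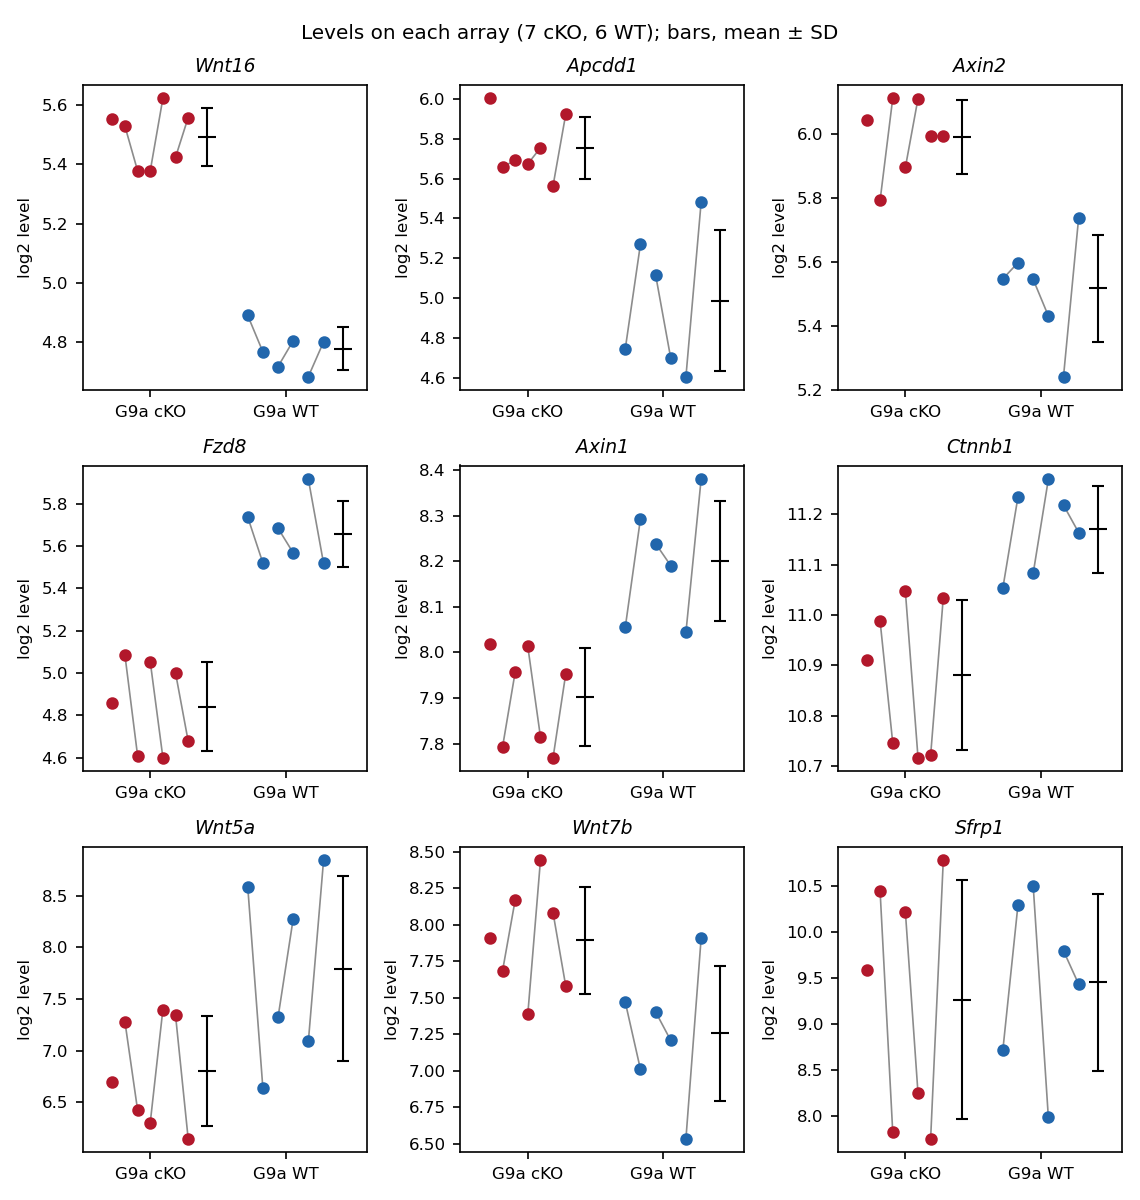
Log2 level of 9 Wnt genes on each array, G9a cKO (red, 7 arrays) left of G9a WT (blue, 6 arrays), each panel with its own axis; lines join neighbouring arrays of a pair and bars give the mean ± SD. The groups do not overlap for Wnt16, Apcdd1, Axin2, Fzd8, Axin1 and Ctnnb1, and they overlap for Wnt5a, Wnt7b and Sfrp1, where the 2 arrays of a pair often lie on opposite sides of the group mean.

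Among the 12 receptors and co-receptors, Fzd8 fell in both fits, and Fzd4 and Fzd5 were called lower without the pair term. Fzd8, a Frizzled receptor, had 4.60, 4.86 and 5.08 in cKO tumours, against 5.52, 5.63 and 5.92 in WT tumours. Every cKO array lay below every WT array. The means were 4.84 ± 0.21 in cKO tumours (SD, n = 7) and 5.66 ± 0.15 in WT tumours (SD, n = 6), a difference of -0.82 (-1.03 to -0.60) or a WT to cKO ratio of 1.76, with a limma adjusted p of 3.68e-05 and of 0.00497 with the pair term. Fzd8 had 1 probe set.

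Fzd5 and Fzd4 each had a second probe set. Fzd5 had 6.74, 7.01 and 7.31 in cKO tumours, against 7.20, 7.49 and 8.24 in WT tumours, a difference of -0.62 (adjusted p 0.0097, and 0.0677 with the pair term). The second probe set of Fzd5 had 4.15, 4.27 and 4.41 in cKO tumours, against 4.51, 4.62 and 4.69 in WT tumours, with no overlap and a call in both fits (-0.36, adjusted p 2.91e-05 and 0.00521), at levels near the controls' upper quartile. Both probe sets of Fzd5 were thus lower in cKO tumours, and the call in both fits came from the second. Fzd4, a receptor also known to bind the ligand Norrin, had 4.05, 4.35 and 4.63 in cKO tumours, against 4.46, 4.68 and 5.01 in WT tumours (-0.37, adjusted p 0.0098, and 0.0758 with the pair term). Its second probe set, with 3.62, 3.69 and 3.77 in cKO tumours and 3.67, 3.79 and 3.99 in WT tumours, was not called. That second probe set lay below the controls' upper quartile of 4.31, and the first lay near it in cKO tumours.

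On the probe sets of highest mean, limma called no receptor or co-receptor higher, and 1 of them (Fzd3) was higher at an unadjusted p under 0.05, with a difference of 0.21 (adjusted p 0.0751). Fzd3 had 6.55, 6.72 and 6.91 in cKO tumours, against 6.28, 6.46 and 6.85 in WT tumours. Its 5 other probe sets differed by -0.13 to 0.45, and the one at 0.45 was called without the pair term (6.20, 6.49 and 6.60 in cKO tumours, 5.50, 5.87 and 6.74 in WT tumours). Left without WT replicate 4, Fzd3 itself was called (0.28, adjusted p 0.0114), and so was Fzd2 (0.66, adjusted p 0.0455), which differed by 0.40 over all arrays. Fzd2 had 7.68, 8.36 and 8.85 in cKO tumours, against 6.91, 7.88 and 9.16 in WT tumours, and its other 2 probe sets differed by 0.23 and -0.16. Fzd6, which orients hairs in mouse skin, differed by 0.15 on its first probe set (7.66, 8.01 and 8.24 in cKO tumours, 7.54, 7.80 and 8.08 in WT tumours) and by -0.26 on its second, which was called without the pair term (5.39, 5.53 and 5.75 in cKO tumours, 5.59, 5.79 and 6.25 in WT tumours). Fzd6 has therefore no settled direction here.

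The co-receptors Lrp5 (0.05) and Lrp6 (-0.12) were not called, with intervals of -0.12 to 0.21 and -0.37 to 0.13. Lrp5 had 8.48 to 8.81 in cKO tumours and 8.43 to 8.78 in WT tumours, and Lrp6 8.10 to 8.87 in cKO tumours and 8.34 to 8.84 in WT tumours, so both overlapped almost wholly. Fzd1 (-0.20), Fzd7 (0.04), Fzd9 (-0.02) and Fzd10 (-0.08) were not called either. The second probe set of Fzd7 differed by -0.45 (5.13, 5.83 and 6.32 in cKO tumours, 5.24, 6.19 and 7.28 in WT tumours) and was not called, while the first had 5.76, 6.15 and 6.53 in cKO tumours and 5.34, 5.96 and 6.83 in WT tumours.

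None of the 7 secreted antagonists was called by limma, and 1 of them (Dkk2) had an unadjusted p under 0.05. Sfrp1, Wif1 and Dkk3 had an SD of at least 0.5 in a group. Sfrp1, which binds Wnt proteins outside the cell, had the widest spread of the 46: 7.75, 9.58 and 10.78 in cKO tumours, against 7.98, 9.61 and 10.51 in WT tumours. Its SD was 1.30 in cKO tumours and 0.96 in WT tumours, and its difference was -0.19 with an interval of -1.49 to 1.11 (adjusted p 0.816). A fall or rise of 2-fold in Sfrp1 thus lies within the interval.

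Wif1, another protein that binds Wnt ligands, had 3.96, 4.62 and 5.45 in cKO tumours, against 4.38, 5.20 and 6.42 in WT tumours, a difference of -0.70 (adjusted p 0.0968). It was called when WT replicate 2 was left out (-0.90, adjusted p 0.0332). Dkk3, a divergent member of the Dickkopf family, differed by 0.40 (8.19, 9.01 and 9.43 in cKO tumours, 7.64, 8.36 and 9.54 in WT tumours), and its second probe set by 0.18. Sfrp2 differed by 0.06 and Dkk1, an antagonist of Lrp5 and Lrp6, by 0.04. Dkk2 (0.07) and Notum (0.03), an enzyme that removes the lipid from Wnt proteins, had means below the controls' upper quartile of 4.31 in both groups, so their levels were close to background.

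Apcdd1, a membrane protein that inhibits Wnt signalling and is itself known as a Wnt target, rose in cKO tumours. It had 5.56, 5.69 and 6.00 in cKO tumours, against 4.61, 4.93 and 5.48 in WT tumours, with no overlap. The means were 5.75 ± 0.16 in cKO tumours (SD, n = 7) and 4.99 ± 0.35 in WT tumours (SD, n = 6), a difference of 0.77 (0.47 to 1.07) or 1.70-fold, with a limma adjusted p of 0.000693 and of 0.0159 with the pair term. All 3 of its probe sets were higher in cKO tumours. Probe set 2 had 5.12, 5.59 and 6.04 in cKO tumours, against 4.52, 4.91 and 5.56 in WT tumours (0.64, called without the pair term), and probe set 3 had 5.39, 5.51 and 5.88 in cKO tumours, against 4.27, 4.53 and 4.92 in WT tumours (1.01, called in both fits).

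The ubiquitin ligases Znrf3 and Rnf43 remove Frizzled receptors from the cell surface. Znrf3 had 6.06, 6.30 and 6.55 in cKO tumours, against 6.36, 6.66 and 7.02 in WT tumours, a difference of -0.36 (adjusted p 0.00903, and 0.0735 with the pair term). Its second probe set had 5.17, 5.41 and 5.62 in cKO tumours, against 5.59, 5.93 and 6.42 in WT tumours, a difference of -0.56 that was called in both fits (adjusted p 0.00207 and 0.0309). Both probe sets of Znrf3 thus lay lower in cKO tumours. Rnf43 differed by 0.11 (-0.06 to 0.29) and was not called.

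Among the genes of beta-catenin and its destruction complex, Axin1 and Ctnnb1 fell slightly on their probe set of highest mean. Ctnnb1, which encodes beta-catenin, had 10.72, 10.91 and 11.05 in cKO tumours, against 11.05, 11.19 and 11.27 in WT tumours, with no overlap before rounding. The difference was -0.29 (-0.43 to -0.14), with a limma adjusted p of 0.00364 and of 0.0476 with the pair term. Its other probe sets differed by -0.10 and -0.06 and were not called, with 9.33, 9.58 and 9.76 in cKO tumours and 9.47, 9.66 and 9.89 in WT tumours on probe set 2, and 9.14, 9.42 and 9.71 in cKO tumours and 9.29, 9.48 and 9.70 in WT tumours on probe set 3. Axin1, a scaffold of the complex, had 7.77, 7.95 and 8.02 in cKO tumours, against 8.04, 8.21 and 8.38 in WT tumours. The difference was -0.30 (-0.44 to -0.16), with a limma adjusted p of 0.00233 and of 0.0326 with the pair term. Its second probe set went the other way by 0.06 and was not called (7.81, 8.02 and 8.12 in cKO tumours, 7.81, 7.94 and 8.08 in WT tumours).

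The falls of Axin1 and Ctnnb1 were smaller than the largest difference of a nonspecific control, and genes of high level were lower on cKO arrays in general. Among the 10% of genes with the highest mean level, the median difference was -0.11, and among the next 10% it was also -0.11. After quantile normalization of the deposited values, which removes this trend, Axin1 differed by -0.19 and Ctnnb1 by -0.16, both still called without the pair term and not with it (adjusted p 0.118 and 0.176). With the mean over probe sets neither was called (adjusted p 0.0993 and 0.159).

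Apc, another member of the complex, differed by -0.12 on its probe set of highest mean and was not called (7.67, 7.90 and 8.15 in cKO tumours, 7.76, 8.01 and 8.34 in WT tumours). All 3 of its other probe sets were lower too. Probe set 3 differed by -0.36 and was called without the pair term (5.84, 6.19 and 6.40 in cKO tumours, 6.18, 6.51 and 6.86 in WT tumours). Probe set 4 differed by -0.46, was called in both fits (adjusted p 0.000363 and 0.0122) and did not overlap between the groups (4.23, 4.46 and 4.56 in cKO tumours, 4.65, 4.92 and 5.10 in WT tumours). Probe set 2 differed by -0.10.

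Limma called neither nuclear factor on its probe set of highest mean, and none had an unadjusted p under 0.05. Tcf7l2, a partner of beta-catenin on DNA, differed by -0.25 (8.47, 9.19 and 9.43 in cKO tumours, 8.67, 9.30 and 10.00 in WT tumours). Its probe sets ran from there to -1.13. Probe set 2 differed by -0.40 and was not called, and probe set 3 by -0.70, called without the pair term (5.25, 5.61 and 5.80 in cKO tumours, 5.64, 6.11 and 6.86 in WT tumours). Probe set 4 differed by -1.13 and was called in both fits (adjusted p 0.000694 and 0.0168), with 3.38, 3.73 and 3.91 in cKO tumours and 4.31, 4.69 and 5.69 in WT tumours. All cKO values of probe set 4 lay below the controls' upper quartile of 4.31, so the size of that difference is limited by background. The parts of the transcript that the 4 probe sets read were not analysed here. Lef1, the other partner, had 4.17, 4.47 and 4.93 in cKO tumours, against 3.91, 4.25 and 4.89 in WT tumours, a difference of 0.17 (-0.16 to 0.50). The WT median of Lef1 lay below the controls' upper quartile, and its cKO median near it.

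Of the 4 feedback targets, Axin2 rose. Axin2, a close relative of Axin1 and a widely used readout of the beta-catenin branch, had 5.79, 5.99 and 6.11 in cKO tumours, against 5.24, 5.55 and 5.74 in WT tumours, with no overlap. The means were 5.99 ± 0.12 in cKO tumours (SD, n = 7) and 5.52 ± 0.17 in WT tumours (SD, n = 6), a difference of 0.47 (0.31 to 0.64) or 1.39-fold, with a limma adjusted p of 0.000281 and of 0.0124 with the pair term. The largest difference of a hybridisation control was 0.49, in the same direction. The second probe set of Axin2 had 4.36, 4.61 and 4.76 in cKO tumours, against 4.29, 4.47 and 4.87 in WT tumours, a difference of 0.07 that was not called (adjusted p 0.51), and the mean over both probe sets differed by 0.27 and was called without the pair term (adjusted p 0.00437).

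Nkd1 and Nkd2 bind Dishevelled and dampen the pathway. Nkd1 differed by 0.10 on its probe set of highest mean and was not called (5.91, 6.06 and 6.18 in cKO tumours, 5.88, 5.98 and 6.00 in WT tumours). Probe sets 2 and 3 of Nkd1 were called higher in both fits without overlap. Probe set 2 had 5.45, 5.55 and 5.59 in cKO tumours, against 5.03, 5.14 and 5.31 in WT tumours (0.38, adjusted p 5.85e-05 and 0.00678), and probe set 3 had 4.39, 4.43 and 4.48 in cKO tumours, against 4.01, 4.08 and 4.11 in WT tumours (0.37, adjusted p 4.89e-07 and 0.00126). Probe set 4 differed by 0.05 and was not called. Nkd2 differed by 0.26 and was not called (6.07, 6.46 and 7.17 in cKO tumours, 5.98, 6.24 and 6.79 in WT tumours), and its other probe sets, at 0.29 and 0.13, were called without the pair term.

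Sp5, a transcription factor that is switched on by the beta-catenin branch in the mouse embryo, was called lower without the pair term (-0.12, adjusted p 0.00521, and 0.0756 with it). It had 3.99, 4.04 and 4.09 in cKO tumours, against 4.10, 4.17 and 4.24 in WT tumours, all below the controls' upper quartile. At that level the difference lies within the range of the nonspecific controls.

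The starts of Axin2 and Sp5, both feedback targets, are shown. Axin2 was taken because it was called in both fits. Sp5, near background, was chosen because its window holds the motif that was searched for. The windows are RefSeq, build GRCm38.p6, plus strand, on chromosomes 11 and 2, with CG dinucleotides in capitals for Axin2 and the letters CTTTGA, the core of the TCF/LEF motif, in capitals for Sp5.

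Axin2, chr11:108920099-108920398: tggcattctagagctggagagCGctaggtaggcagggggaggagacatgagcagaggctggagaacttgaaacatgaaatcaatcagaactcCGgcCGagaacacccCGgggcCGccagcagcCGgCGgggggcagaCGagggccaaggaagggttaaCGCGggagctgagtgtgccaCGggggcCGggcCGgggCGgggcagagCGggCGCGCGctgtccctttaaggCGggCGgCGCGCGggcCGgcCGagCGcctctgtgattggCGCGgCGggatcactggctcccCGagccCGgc

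Sp5, chr2:70474673-70474972: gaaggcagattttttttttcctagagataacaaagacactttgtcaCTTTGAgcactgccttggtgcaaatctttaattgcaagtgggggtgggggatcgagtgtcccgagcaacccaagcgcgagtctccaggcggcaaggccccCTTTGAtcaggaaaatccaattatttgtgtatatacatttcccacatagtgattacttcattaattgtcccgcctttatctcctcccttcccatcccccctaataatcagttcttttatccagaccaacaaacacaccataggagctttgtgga

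The Sp5 window holds CTTTGA at 2 places, which begin at -204 and -104 from the start, and the Axin2 window holds none on either strand. The letters were searched on both strands with no other motif, and 16% of all windows (5257 of 32851) hold them. They occur in 6 of the 38 Wnt windows (15.8%), those of Sp5, Lef1, Fzd1, Wnt5b, Wnt11 and Dkk1, a share close to that of all windows. The Axin2 window holds 31 CG dinucleotides, and 89.4% of all windows hold fewer, while the Wnt16 window printed above holds 10.

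Read over all 84 probe sets of the 46 genes, 33 (39.3%) were called without the pair term, against 46.9% of all 28898 probe sets, and 15 (17.9%) in both fits, against 25.7%. Of these 15, 7 were higher and 8 lower. Besides Wnt16, Apcdd1, Axin2, Fzd8, Axin1 and Ctnnb1, 7 genes had a call in both fits on another probe set: Wnt7b and Nkd1 were higher there, and Wnt5b, Fzd5, Znrf3, Apc and Tcf7l2 lower. Of the 38 probe sets other than the one chosen, 30 had the sign of the chosen one. For Fzd6 and Wnt7a another probe set was called in the opposite direction, that of Wnt7a being near background.

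**Figure D3:**
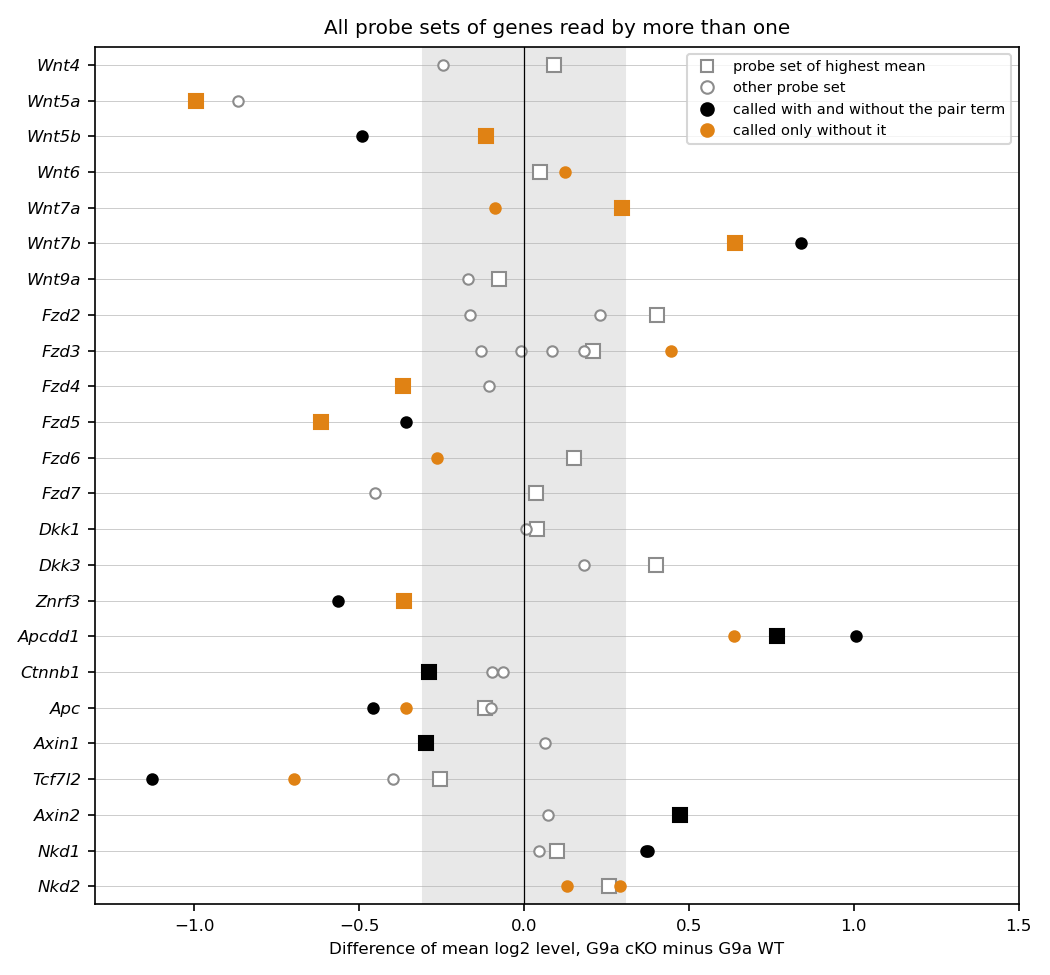
Difference of the mean log2 level, G9a cKO minus G9a WT, for each probe set of the 24 Wnt genes that have several; squares are the probe set of highest mean, circles the others, filled black where called in both fits and orange where called only without the pair term. The grey band spans 0.307 on either side of 0, and no nonspecific control rose by more than 0.08. All 3 probe sets of Apcdd1 lie right of the band, and Tcf7l2 runs from -0.25 to -1.13.

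The spread within a group was part of the picture for the Wnt genes. The SD over arrays had a median of 0.17 in cKO tumours and 0.22 in WT tumours over the 46 genes, against 0.10 in cKO tumours and 0.12 in WT tumours over all genes. It was larger in WT tumours for 35 of the 46, as for 65.9% of all genes. An SD of at least 0.5 in either group was found for 9 of the 46 (Sfrp1, Wnt5a, Wif1, Fzd2, Dkk3, Fzd7, Wnt4, Wnt10a and Fzd1), and for 5.72% of all genes. None of these 9 was called in both fits, and a wide SD by itself makes a call less likely.

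**Figure D4:**
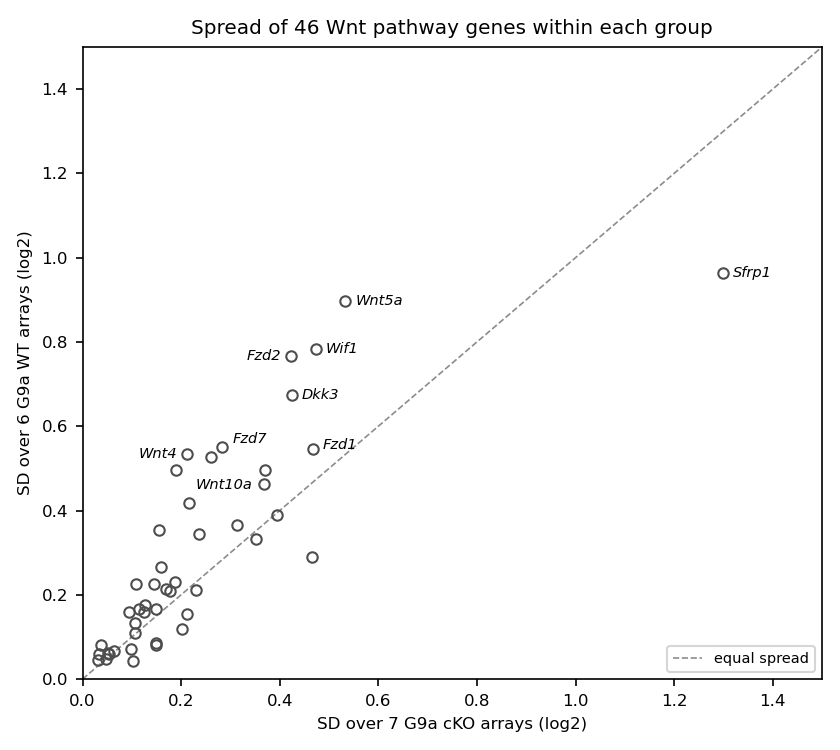
SD of the log2 level over the 7 G9a cKO arrays (horizontal axis) and the 6 G9a WT arrays (vertical axis) for the 46 Wnt genes, with genes of an SD of at least 0.5 in a group named; the dashed line marks equal spread. Of the 46 points, 35 lie above the line, and Sfrp1 stands at 1.30 and 0.96, below it.

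Other genes of the pathway came from a second list of 73 symbols, of which 69 were found; Wisp1, not found, is an older symbol of Ccn4, which was. Without the pair term 31 (44.9%) were called, 15 higher and 16 lower, against 45.8% of all genes, and in both fits 19 (27.5%), 10 higher and 9 lower, against 24.7%. With every array centred on its median gene, 10 were higher and 18 lower without the pair term. The 6 rises with the smallest p were those of Rspo4, an R-spondin that amplifies Wnt signals (0.30), the formin Daam2 (0.30), the transducer Dvl3 (0.18), the secreted antagonist Frzb (0.16), the receptor Ror1 (0.43) and the ligand Wnt1 (0.15). Apart from that of Ror1, these rises were smaller than 0.307, the size of the largest difference of a nonspecific control. That control fell, and no nonspecific control rose by more than 0.08, which all 6 rises passed. Hybridisation controls were higher on cKO arrays by 0.06 to 0.49. A size of 0.307 was passed by 9 of the 19 genes called in both fits. Ror1 and Wnt1 had means below the controls' upper quartile in both groups, and a second probe set of Ror1 differed by -0.002. The 6 falls included the tankyrase Tnks2, which marks Axin for destruction (-0.57), and the planar polarity genes Prickle1 (-1.37) and Celsr1 (-0.38). The others were the Wnt inhibitor Tpbg (-0.47), the kinase Csnk1d (-0.30) and Frat2, which binds Gsk3 (-0.78). The fall of Csnk1d was smaller than the largest difference of a nonspecific control, 0.307. Its probe sets 2 and 3 differed by 0.01 and -0.08 and were not called. Its probe set 4 differed by -0.26 and was called without the pair term.

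Prickle1 had 4.23, 4.55 and 5.34 in cKO tumours, against 5.64, 5.96 and 6.77 in WT tumours, with no overlap. Rspo4 had 5.59, 5.65 and 5.70 in cKO tumours, against 5.27, 5.36 and 5.42 in WT tumours, also with no overlap. Of 9 listed targets of the pathway in other tissues, 2 (22.2%) were called without the pair term, against 45.8% of all genes. In both fits 1 (11.1%) was called, against 24.7% of all genes. Sox4 fell by 0.73 in both fits, and Cd44 differed by -0.17 and was called without the pair term (limma adjusted p 0.0124). Ccnd1 differed by 0.07 and Myc by -0.31, and neither was called. The follicle stem cell receptor Lgr5 (-0.45) and Lgr6 (0.27) were not called. The ligand carrier Wls differed by -0.02.

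Markers of other cells moved with the groups in these bulk samples, in which fewer cells of a type and less RNA per cell cannot be told apart. Of 12 fibroblast markers, 8 rose in both fits, with a summed linear level of 2720 to 4505 in cKO tumours and 1761 to 3368 in WT tumours. Of 10 endothelial markers, 7 rose (570 to 935 in cKO tumours, 216 to 504 in WT tumours), and of 10 leukocyte markers, 4 rose (558 to 931 in cKO tumours, 320 to 347 in WT tumours). Many markers of fibroblasts, vessels and leukocytes thus rose in the same comparison as Wnt16, Apcdd1 and Axin2, and their part in these differences was not tested. Col1a2, Pdgfra, Tek, Cd3e and Ptprc lay below the controls' upper quartile in both groups. Fbln1 (0.17), Postn (-0.24), Kdr (0.04), Cd68 (0.26), Cd79a (0.003) and Lyz2 (0.70) had means above it and were not called. Cdh5 (1.52) and Itgam (0.23) were called higher only without the pair term.

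Of 10 keratinocyte markers, 1 rose and 1 fell in both fits, with a summed level of 23703 to 29671 in cKO tumours and 25813 to 27976 in WT tumours, so the markers of the labelled tissue were present in both groups. Of 10 hair follicle markers none was called in both fits (limma called 1 higher without the pair term), and their sum was 1291 to 3005 in cKO tumours and 1482 to 3448 in WT tumours. Of 7 dermal papilla markers measured 2 rose, and the sum did not overlap (237 to 519 in cKO tumours, 181 to 204 in WT tumours), and the markers that rose were Crabp1 (2.58) and Sox18 (0.65). The other 5 differed by -0.05 to 0.26 and were not called, and Corin and Prom1 lay below the controls' upper quartile. Most of the gap in the sum came from Crabp1, with 5.97 to 8.31 on the log2 scale in cKO tumours and 4.04 to 4.68 in WT tumours. Of 6 skeletal muscle markers 1 rose (172 to 178 in cKO tumours, 162 to 173 in WT tumours). Of 5 melanocyte markers 1 rose, Mlana (0.26), while Pmel (-0.43) and Dct (-0.18) were called lower without the pair term. Their sum was 156 to 176 in cKO tumours and 125 to 222 in WT tumours. Of 3 adipocyte markers 1 rose (162 to 860 in cKO tumours, 214 to 1969 in WT tumours). It was Adipoq (0.19), below the controls' upper quartile in both groups, while Fabp4 (-0.56) and Lpl (-0.01) were not called. Over all genes, 14.4% rose in both fits. The part of these cells in the Wnt differences was not tested.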

How the data were processed

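RNA of 13 tumours was measured on Affymetrix mouse arrays, and the deposited values are log2 levels per probe set after RMA, per the submitters' processing notes (whether they were adjusted later is not stated). For every array 25 ng of RNA was amplified over 17 cycles, and 8 µg of cDNA was used. The platform annotation gives 1 gene symbol to 28898 of 45141 probe sets, several to 551 and none to 15588, and 104 others are controls. Of the single-symbol ones, 28689 were found by gene ID in the mouse annotation (GRCm38.p6). The 17097 genes were each read by the probe set of highest mean. limma 3.58.1 (R 4.3.3, with lmFit and eBayes) gave the differences (no filter, two-sided, Benjamini-Hochberg, threshold 0.05), and again with a term for 6 neighbouring pairs. The pairs were set by the order of the arrays within each group. The correlations of the arrays' deviations decided which cKO array stood alone. Precision is limited by the number of arrays.

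The genes and lists were chosen with earlier results of these data known. By rule, array values were to be given for members called in both fits with a difference above that of every nonspecific control, and for members whose probe sets disagree; those of other members (such as Porcn, Wnt2, Lrp5, Lrp6, Sfrp1, Wif1, Lef1 and Sp5) were added after their values were seen. Of other pathway genes, up to 6 rises and 6 falls by smallest p were named. Promoter windows are RefSeq's, and their counts used Python 3.11.15. Figures were drawn with matplotlib 3.10.9.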

Additional observations from a re-analysis of the deposited data

Results flagged for a closer look

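Of 92 sets of values (46 genes in each of the 2 groups), 3 held a value far from the rest of its set. By chance about 1 in 20 sets would if the arrays were independent, which the mirrored arrays here are not. Sfrp2 read 6.22 in cKO replicate 6, against 5.11 to 5.36 in the other cKO tumours. Wnt9a read 6.35 in WT replicate 7, against 5.43 to 5.76 in the other WT tumours. Nkd1 read 5.88 in WT replicate 7, against 5.96 to 6.00 in the other WT tumours. None of the 3 genes was called on this probe set.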

How the results depend on the processing

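Of 23 alternatives, those that moved a total of called genes by more than 1.5 times were the term for neighbouring pairs, with or without quantile normalization before it, and the replicate number as a block. All genes called numbered 7830, against 4228 with the pair term and 3691 with the pair term after quantile normalization. The Wnt genes called numbered 15, against 6 and 6, and the other pathway genes 31, against 19 and 13. With 1 array left out, 7016 to 7718 genes, 13 to 15 Wnt genes and 31 to 34 other pathway genes were called. The pair term after quantile normalization was chosen after seeing the data.

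Both groups have arrays numbered 2, 6, 8 and 9, but same-numbered arrays did not deviate together (correlations 0.05, -0.30, -0.14 and -0.07), so the numbers were not taken as pairs. With the replicate block 3055 genes, 4 Wnt genes and 14 other pathway genes were called, with fewer arrays in the comparison; Axin2 (0.45, adjusted p 0.051) and Ctnnb1 (-0.26, adjusted p 0.107) lost their call.

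Wnt16, Apcdd1 and Fzd8 were called under all 23 alternatives. Of the 15 called genes, 0 changed sign, and 17 of the other 31 changed sign under some alternative. Wnt7b lost its call without cKO replicates 3, 6 or 8 or WT replicates 4 or 8, and Nkd1 and Dkk2 gained one without cKO replicate 6 and WT replicate 9. With the mean over probe sets Wnt6, Apc, Tcf7l2 and Nkd1 were called. With genes below the 25th percentile left out, 39 Wnt genes stayed in and 13 were called. Differences of genes near 4.31 are limited by background, and p-values by the mirrored arrays.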

Other observations

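Several pathway genes lie side by side in the mouse genome, and neighbours did not always differ alike. Frat1 and Frat2, neighbours on chromosome 19, differed by 0.14 and -0.78, and both were called in both fits. Kremen1 and Znrf3, neighbours on chromosome 11, differed by 0.27 and -0.36, neither called in both fits. Wnt9b and Wnt3 on chromosome 11 differed by 0.23 and 0.22, and Wnt9b rose in both fits. The limma adjusted p of Wnt9b was 0.0495 with the pair term, and its groups overlapped. Wnt10b and Wnt1 on chromosome 15 differed by 0.01 and 0.15, and Wnt1 rose in both fits, at a level near background. Wnt6 and Wnt10a on chromosome 1 (0.05 and -0.003) and Wnt3a and Wnt9a on chromosome 11 (0.02 and -0.07) were not called. The rises of Frat1, Wnt9b and Wnt1 were smaller than 0.307, the size of the largest fall of a nonspecific control. They were larger than the largest rise of such a control, 0.08.

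Further pathway genes were called in both fits. The nuclear cofactor Pygo2 rose by 0.41, and the ligand Wnt8a by 0.14. The corepressor Tle3 fell by 0.33 and the kinase Gsk3b by 0.19. The fall of Gsk3b was smaller than the largest fall of a nonspecific control, 0.307. The rise of Wnt8a was smaller than that size and larger than the largest rise of such a control, 0.08. Gsk3b had a limma adjusted p of 0.0493 with the pair term. Its means were 10.05 in cKO tumours and 10.24 in WT tumours, and genes of high level were lower on cKO arrays in general.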
